A study of Mus musculus with 9 samples.

Results

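The resting transcriptome of cultured mouse mast cells was described from 3 libraries, the Control libraries, out of 9 in the series. They were chosen by their label alone, and all genes of the deposited count table were used. The cells were bone marrow-derived mast cells (BMMC) from wild-type C57BL/6 mice and received no treatment. They had been grown for 4 weeks or longer in DMEM. Medium conditioned by WEHI-3 cells, which secrete interleukin 3, made up 30% of it and heat-inactivated fetal bovine serum 20%. Messenger RNA was sequenced from both ends of each fragment. The labels call the 3 libraries biological replicates but do not say whether they came from separate animals or cultures, so every SD below measures the spread between these libraries, which may be technical. The libraries are called Control 1, 2 and 3.

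Mast cells are tissue-resident cells of the innate immune system that store proteases, histamine, serotonin and the proteoglycan serglycin in secretory granules. They carry the tetrameric high-affinity receptor for immunoglobulin E (IgE), and crosslinking of bound IgE releases the granule contents and starts the synthesis of lipid mediators and cytokines. Bone marrow cells held in interleukin 3 grow into immature mast cells, which carry the tyrosine kinase receptor KIT. GATA2 is known to be needed for their identity, and the shared beta chains of the interleukin 3 receptor for growth in interleukin 3.

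Total counts were 13712274 in Control 1, 14116976 in Control 2 and 13869250 in Control 3, and a limit of 3 counts corresponded to 0.213 to 0.219 CPM, the count scaled to the library total. Counting limits cover counting error only, because reads carried no molecular identifiers. Of 15109 genes in the table, 14645 had counts in all 3 libraries and 12 had none in any of them. Levels are given as TPM, a unit of transcript abundance in which the count is divided by the merged exon length of the gene and scaled to the same sum in every library, because only a value per length can be compared between genes. The table had been restricted over all 9 libraries, each listed gene having a count in at least 4 of them, and genes outside it are written here as having no value. In bulk RNA, fewer cells of a type and less RNA per cell cannot be told apart.

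The 6 genes that define the mast cell were all abundant, and they summed to 6.58% ± 0.119 of TPM (SD, n = 3), or 3.21% without division by length. Cpa3, the granule carboxypeptidase A3, stood at 42911, 42296 and 43815 TPM in Control 1, 2 and 3 and ranked first of all genes in every library. Fcer1a, the IgE-binding alpha chain of the receptor, stood at 16803, 16746 and 17281 TPM and ranked 4 in every library. Ms4a2, the beta chain that amplifies signalling from the same receptor, stood at 3052, 2826 and 3077 TPM. By TPM, Control 3 was the highest library and Control 2 the lowest for each of these 3 genes. By CPM, Control 3 was again the highest for each, but Control 1 was the lowest for Cpa3 and Fcer1a.

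Kit, the receptor for stem cell factor, stood at 1681, 1541 and 1641 TPM and ranked 56 by the mean. Gata2, the zinc finger factor of the mast cell and early blood lineages, stood at 1173, 1167 and 1141 TPM and ranked 89. Hdc, which makes histamine from histidine, was the lowest of the 6 at 118, 117 and 118 TPM, rank 1416. Its mean of 117 TPM lay above the median of all genes, 14.2 TPM, but was 0.273% of the Cpa3 level. The order of the 6 means was Cpa3, Fcer1a, Ms4a2, Kit, Gata2, Hdc, and no neighbours in that order overlapped between libraries.

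The sequence upstream of 4 of these genes is shown because the markers differ in their proximal promoters. Some held GATA words and few CG dinucleotides, and others many CG dinucleotides and no GATA word. The sequences are the 200 bases before the RefSeq start of the gene (GRCm38.p6), read 5′ to 3′ on the strand of the gene, and capitals mark the word AGATAA, or the word AGATAG, or the word TGATAA, or the word TGATAG, on either strand. Cpa3 lies at chr3:20242182-20242381 (minus strand), Fcer1a at chr1:173227230-173227429 (minus strand), Ms4a2 at chr19:11623720-11623919 (minus strand) and Kit at chr5:75574787-75574986 (plus strand).
Cpa3: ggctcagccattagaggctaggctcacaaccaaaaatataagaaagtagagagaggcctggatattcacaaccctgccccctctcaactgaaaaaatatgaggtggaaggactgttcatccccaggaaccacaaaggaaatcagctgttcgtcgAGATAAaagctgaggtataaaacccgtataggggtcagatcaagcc
Fcer1a: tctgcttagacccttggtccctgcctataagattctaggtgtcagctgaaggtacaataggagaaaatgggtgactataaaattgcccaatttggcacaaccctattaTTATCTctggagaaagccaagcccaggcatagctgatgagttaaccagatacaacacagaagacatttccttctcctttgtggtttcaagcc
Ms4a2: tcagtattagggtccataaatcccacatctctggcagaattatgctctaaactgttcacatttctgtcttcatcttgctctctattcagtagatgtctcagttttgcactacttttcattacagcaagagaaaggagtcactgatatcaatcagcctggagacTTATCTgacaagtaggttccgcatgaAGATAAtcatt
Kit: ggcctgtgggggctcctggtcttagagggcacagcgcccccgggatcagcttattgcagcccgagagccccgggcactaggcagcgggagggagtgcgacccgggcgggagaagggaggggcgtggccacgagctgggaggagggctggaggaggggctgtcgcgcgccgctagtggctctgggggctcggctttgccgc
Within 250 bases upstream, a GATA word occurred 1 time for Cpa3, 1 time for Fcer1a, 3 times for Ms4a2 and 1 time for Hdc, and 0 times for Kit and Gata2. The same windows held 3 CG dinucleotides for Cpa3, 0 for Fcer1a, 1 for Ms4a2 and 2 for Hdc, against 17 for Kit and 22 for Gata2. A word match is a description of the letters in the window and not a binding site.

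Promoters of the most abundant transcripts held the same words more often than promoters of the table at large. A promoter was matched for 10666 of the 15109 genes. A GATA word lay within 250 bases upstream in 28 of 77 matched genes among the first 100 by TPM (36.4%), in 17.7% of the 802 among the first 1000, and in 17.4% of all matched genes of the table. Across all 27025 promoters of the reference the share was 27.1%. Without ribosomal protein genes it was 24 of 60 among the first 100 (40%). The TATA word TATAAA, searched on both strands, followed the same order, with 16.9% among the first 100, 7.86% among the first 1000, 6.43% in the table and 13.0% in the reference. The word GGGCGG of the GC box went the other way, at 44.2% among the first 100, 58.2% among the first 1000 and 57.7% in the table, against 32.9% in the reference. The first 100 were chosen by level, and these shares are a description with no test.

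Few genes held a large share of the transcripts. Cpa3, Cma1 and Tpsb2, all granule proteases, together held 9.91% ± 0.170 of TPM (SD, n = 3), the first 10 genes held 16.8% ± 0.267, the first 100 held 34.5% ± 0.375 and the first 1000 held 64.5% ± 0.398. Between 344 and 369 genes were enough to reach 50% of TPM in a library. Of the raw counts, without division by length, the first 3 genes held 3.94% ± 0.109 and the first 100 held 22.4% ± 0.184, and 59 of the first 100 genes by TPM were also among the first 100 by counts. The first 100 places were stable, since 97 genes held one in every library.

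Cma1, the chymase, ranked 2 in every library at 32556, 34693 and 34061 TPM, and Tpsb2, the tryptase of the mast cell granule, ranked 3 at 21663, 22852 and 22401 TPM. Next came Fcer1a and Ifitm1, an interferon-inducible transmembrane protein, at 12530 TPM ± 477, then the elongation factor Eef1a1 at 10770 TPM ± 79.6 and the ferritin light chain Ftl1 at 10625 TPM ± 541 (mean ± SD, n = 3). Eef1a1 and Ftl1 exchanged ranks 6 and 7 in Control 2, and their means did not differ beyond the SD of Ftl1. These 7 genes were the only ones at 10000 TPM or more in all 3 libraries. Of the read-length windows of Ftl1, 34.1% also occur in another gene, and of those of Eef1a1 15.9%, so their levels are uncertain by the reads that such copies share.

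The next places among genes outside the ribosome mixed granule, receptor and structural genes. Gzmb, the serine protease granzyme B, stood at 6284, 6204 and 6392 TPM, and Csf2rb2, a beta chain of the interleukin 3 receptor, at 6128, 5567 and 5962 TPM. A predicted gene that followed shared 92.9% of its windows with the inhibitory receptor gene Lilrb4a, which had no value of its own. Tmsb4x, which binds actin monomers, had 5075 TPM ± 86.1, Actb, cytoplasmic beta actin, 5069 TPM ± 124, and B2m, the light chain of MHC class I, 4693 TPM ± 34.8. Tmsb4x and Actb changed places between libraries and cannot be ordered.

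Srgn, the core protein of the granule proteoglycan serglycin, stood at 4433, 4437 and 4574 TPM and ranked 15 in every library. Tph1, the tryptophan hydroxylase that starts serotonin synthesis, followed at 4079, 3866 and 4057 TPM. The rest of the first 20 outside the ribosome were Ctsd (lysosomal cathepsin D) at 3838 TPM ± 87.4, Ifitm2 at 3701 TPM ± 80.0, Il1rl1 (the interleukin 33 receptor ST2) at 3601 TPM ± 213, Scin (the actin-severing protein scinderin) at 3585 TPM ± 90.6 and Ctla2a at 3448 TPM ± 103. The order of these 5 genes was not the same in every library, since Il1rl1 was above Ctsd in Control 1 and below Ctla2a in Control 2. Windows were shared with other genes for 30.2% of Ctsd, 34.6% of Ifitm2 and 10.9% of Ctla2a.

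**Figure D1:**
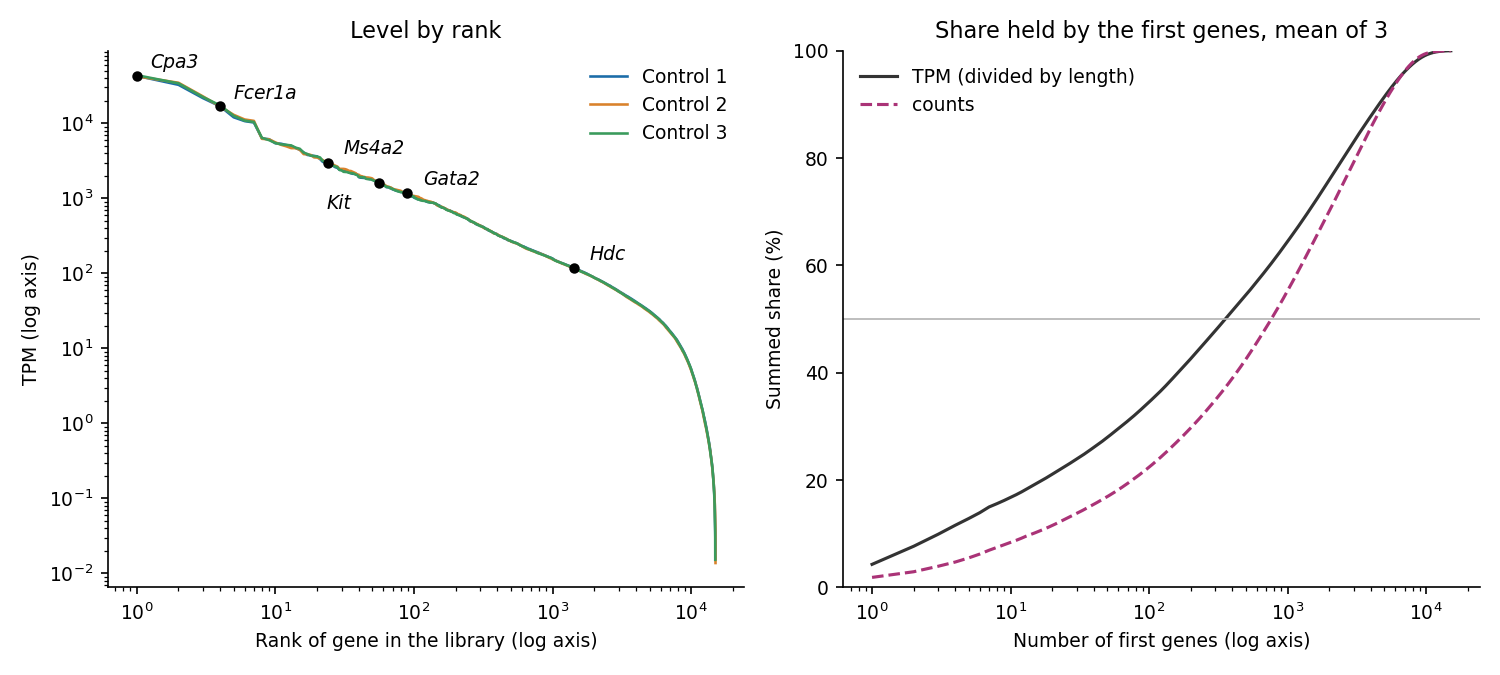
Left, TPM of each gene against its rank in each Control library, both axes logarithmic, with the 6 defining genes marked at their means; right, the summed share of TPM (solid) and of counts (dashed) held by the first genes on a logarithmic axis. The 3 libraries lie on 1 curve, and the first 100 genes reach 34.5% of TPM against 22.4% of counts.

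The number of genes detected depended little on the library. At 1 TPM or more in all 3 libraries there were 12107 genes, among them 10569 of 12425 protein-coding ones. At 10 TPM or more there were 8227 and at 100 or more 1644. Protein-coding genes held 96.9% ± 0.0835 of TPM. Long intergenic RNA genes, 335 of them, held 0.516%, and 256 genes under 300 bases held 1.20% ± 0.0910, a class in which dividing by length raises the level steeply. No gene of the mitochondrial genome had a value.

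Granule proteases held more of TPM than any other list, and all with a value lie at 3 loci. The clusters were bounded by their outermost listed proteases, so the loci hold the whole protease share by construction. The 12 proteases with a value, of 13 listed, summed to 10.9% ± 0.182 of TPM (SD, n = 3). Without division by length their share was 4.35%, and on that scale the proteases summed to 43453.5 CPM, below the surface receptor list at 47669.5 CPM. Genes between Cma1 and Gzmb on chromosome 14 (GRCm38, bases 55941451 to 56262260) held 4.14% ± 0.114 of TPM in 320810 bases, and genes between Prss34 and Tpsg1 on chromosome 17 (bases 25298394 to 25374442) held 2.51% ± 0.0675 in 76049 bases. Cpa3 on chromosome 3, alone, held 4.30% ± 0.0764. Chromosome 14 thus carried 6.76% of TPM with 3.22% of the genes that had a level.

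Neighbouring genes within the chymase locus differed by orders of magnitude. Cma1 stood at 33770 TPM ± 1098 and its neighbour Cma2 at 20.8 TPM ± 4.39 (mean ± SD, n = 3). Mcpt2, a protease known from mucosal mast cells, stood at 539, 601 and 573 TPM, and Mcpt1, of the same type, at 63.6, 63.4 and 60.2 TPM. Mcpt4, a chymase of connective tissue mast cells, had 296 TPM ± 4.30, Mcpt8, a protease known from basophils, 299 TPM ± 19.5, and Ctsg, cathepsin G, 32.1 TPM ± 3.95. Mcpt4 and Mcpt8 could not be ordered.

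Granzyme genes of the same locus that are known from cytotoxic lymphocytes were low next to Gzmb at 6293 TPM ± 94.0. Gzmc stood at 11.2 TPM ± 0.306, and Gzmd, Gzme and Gzmn were each under 1 TPM on average.

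In the tryptase locus Tpsb2 was again far above its neighbours. Its level of 22305 TPM ± 600 compared with 1528 TPM ± 53.1 for Prss34, a tryptase-related protease known from basophils, 1168 TPM ± 24.3 for Tpsg1, the membrane-anchored gamma tryptase, and 1.79 TPM ± 0.125 for Prss28. Tpsab1, the other classical mast cell tryptase, stood at 73.4, 76.8 and 68.5 TPM.

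Tpsb2 and Tpsab1 have no window of the length of a read in common. Their coding sequences were 75.7% identical over 827 aligned bases, with a longest identical run of 39 bases. The stretches that differ most are shown because they show how far apart the reads of both genes are, with capitals at the 44 differing bases: coding positions 237 to 337 of Tpsb2, chr17:25367046-25367146 (plus strand), and 339 to 439 of Tpsab1, chr17:25344816-25344916 (minus strand), from the GENCODE M21 transcripts on GRCm38.
Tpsb2: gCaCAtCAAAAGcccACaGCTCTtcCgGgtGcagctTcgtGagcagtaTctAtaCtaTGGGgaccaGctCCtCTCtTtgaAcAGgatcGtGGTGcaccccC
Tpsab1: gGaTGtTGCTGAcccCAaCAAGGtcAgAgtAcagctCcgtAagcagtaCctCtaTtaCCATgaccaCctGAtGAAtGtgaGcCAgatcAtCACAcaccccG
Every library had Tpsb2 above all other tryptases.

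**Figure D2:**
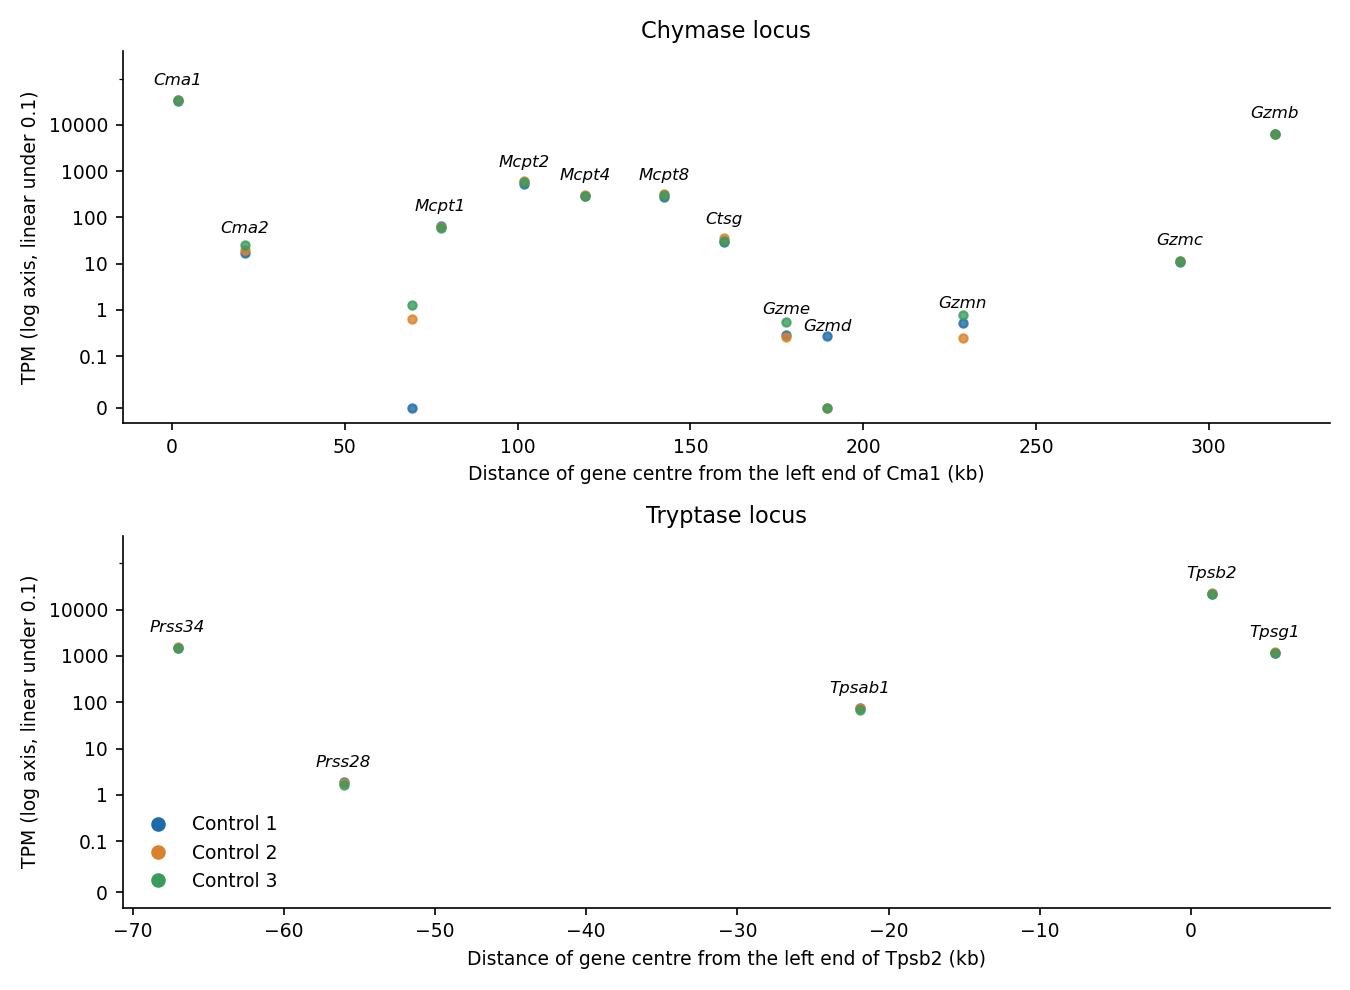
TPM in each Control library (points, logarithmic axis that turns linear under 0.1) for the genes with a value in the chymase and tryptase loci, placed by the distance of the gene centre in kb from the left end of Cma1 or Tpsb2. Cma1, Gzmb and Tpsb2 stand at 6204 TPM or more in all libraries, while Gzmd, Gzme, Gzmn and Prss28 lie under 2 TPM on average. The 1 unnamed point series is a pseudogene.

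Genes listed for both types used to divide mast cells were present. Of 7 genes listed for the connective tissue type, 6 stood at 10 TPM or more. Among them were Slc18a2, the vesicular monoamine transporter, at 1164, 1072 and 1150 TPM, and Ndst2, the heparin sulfotransferase, at 686, 707 and 692 TPM. The lower of the receptor genes Mrgprb2 and Mrgprx2 stood at 1.91 TPM on average, and the other at 10 TPM or more in all libraries. The list summed to 58287 TPM ± 1667, almost all of it Cma1 and Tpsb2. The mucosal list, with 3 of 4 genes valued, summed to 663 TPM ± 29.7. Mcpt2 was its highest member and Itgae, the integrin alpha E chain, its lowest at 29.8 TPM ± 1.44.

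Genes for the subunits of the IgE receptor were present at unequal levels. Fcer1a at 16943 TPM ± 294 was above Ms4a2 at 2985 TPM ± 139, and Ms4a2 was above Fcer1g, the signalling gamma chain shared with other Fc receptors, at 1234, 1281 and 1275 TPM (mean ± SD, n = 3). Both steps were larger than the spread between libraries. Fcgr3, an activating receptor for IgG, stood at 133 TPM ± 2.78.

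Cytokine receptors held several of the first places among 82 surface receptors with a value. Csf2rb2 and Csf2rb, the beta chains that pair with the interleukin 3 receptor alpha chain, stood at 5886 TPM ± 288 and 2613 TPM ± 132. Il3ra, the alpha chain, was much lower at 61.5, 59.2 and 57.6 TPM. The other receptors among the first 10 were Il1rl1, Kit, the tetraspanins Cd53 at 1646 TPM ± 79.5 and Cd63 at 1231 TPM ± 36.9, the latter a membrane protein of granules, and the integrin alpha chain Itga2b at 1198 TPM ± 5.65. Of the 82 receptor genes, 66 stood at 10 TPM or more in all libraries. The median of the 82 was 70.3 TPM against 14.2 TPM for all genes. The list was chosen with earlier results of these data known, so these values describe the list only.

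Csf2rb2 and Csf2rb are near copies, and how they are counted matters. Their coding sequences were 95.2% identical with a longest identical run of 242 bases, and 6.72% of the windows of Csf2rb2 and 4.56% of those of Csf2rb occur in the other gene. The coding stretches with the most differences are shown, with capitals at the 18 differing bases, because reads from them can be told apart: coding positions 324 to 424 of Csf2rb2, within chr15:78292845-78294421 (minus strand), and 321 to 421 of Csf2rb, within chr15:78338910-78340464 (plus strand), each across an exon junction.
Csf2rb2: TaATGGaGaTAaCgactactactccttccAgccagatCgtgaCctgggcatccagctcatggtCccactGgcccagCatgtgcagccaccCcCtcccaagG
Csf2rb: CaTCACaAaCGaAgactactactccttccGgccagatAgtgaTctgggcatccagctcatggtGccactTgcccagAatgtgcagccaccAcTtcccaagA
The log2 ratio of Csf2rb2 to Csf2rb TPM was 1.17 ± 0.0030 (SD, n = 3). It was 0.60 with the length of the longest transcript and 0.55 without division by length, so that Csf2rb2 was first on each scale while the size of its lead depended on the scale.

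Mediator genes of untreated cells covered stored, lipid and secreted products. After Srgn and Tph1 came Alox5, the 5-lipoxygenase of leukotriene synthesis, at 2067, 2065 and 2064 TPM, and its activating protein Alox5ap at 389 TPM ± 15.4. Chemokine genes followed, with Ccl2 at 622, 527 and 594 TPM, Ccl6 at 481 TPM ± 6.87, Ccl3 at 450.5 TPM ± 22.9 and Ccl9 at 358 TPM ± 14.3. Lgals1, galectin 1, stood at 371 TPM ± 9.71 and Tgfb1 at 333 TPM ± 6.24. The 45 mediator genes with a value, of 54 listed, had a median of 111 TPM, and 30 of them stood at 10 TPM or more in all libraries.

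Cytokine genes were present without added stimulus. Il6 stood at 325, 271 and 318 TPM and Il1b, interleukin 1 beta, at 176, 159 and 173 TPM. Lif and Osm, both of the interleukin 6 family, stood at 181, 142 and 166 TPM and at 178, 140 and 164 TPM. Control 2 was the lowest library for each of these 4 genes and for Ccl2. Il33 had 0 counts in all 3 libraries, which allows up to 3 counts or 0.213 to 0.219 CPM. Il3, Il5 and Il9 had no value.

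Transcription factors were ordered within a list of regulators of blood cells, which leaves out other factors, such as Atf4 at 1062 TPM. After Gata2 came Bhlhe40 at 875, 779 and 856 TPM, Klf6 at 644, 617 and 637 TPM, and Tal1, a bHLH partner of GATA factors, at 549, 538 and 540 TPM. Id2, an inhibitor of bHLH factors, stood at 340 TPM ± 24.7 and Nfe2l2 (NRF2), a regulator of antioxidant genes, at 206 TPM ± 1.01. Gata1, which shares targets with GATA2 in mast and red cells, stood at 196, 196 and 196 TPM. Ikzf1 (Ikaros) at 193 TPM ± 5.08, Myc at 183 TPM ± 25.4 and Nfe2 at 175 TPM ± 7.09 completed the first 10 and lay within 1 SD of Myc from Gata1. Of 64 factors with a value, of 71 listed, 45 stood at 10 TPM or more in all libraries, with a median of 62.3 TPM. Mitf, a factor needed for mast cell maturation, stood at 54.7 TPM ± 3.17.

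Genes of growth and protein synthesis were well represented. All 30 genes of the proliferation list stood at 10 TPM or more in every library, led by Pcna, the polymerase clamp, at 484, 492 and 481 TPM, Mcm3 at 285 TPM ± 9.10 and Mcm6 at 250 TPM ± 0.994, both parts of the replicative helicase. Mki67, known from cycling cells, stood at 161 TPM ± 11.6 and Top2a, topoisomerase II, at 174 TPM ± 4.11. The 94 ribosomal protein genes held 8.07, 8.75 and 8.18% of TPM in Control 1, 2 and 3, highest in Control 2, and 4.21% ± 0.228 of counts. The highest were Rplp1 at 5661 TPM ± 392, Rps3a1 at 3122 TPM ± 121 and Rps4x at 2683 TPM ± 71.2, each sharing windows with processed copies (29.3, 44.6 and 18.3%).

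Other process lists had the following leading members. Ferritin heavy chain Fth1 stood at 2332 TPM ± 98.4, and Hmox1, heme oxygenase, at 564 TPM ± 3.30. Class I MHC was led by H2-D1 at 1391 TPM ± 26.5 and H2-K1 at 710 TPM ± 16.4, after B2m. The class II genes H2-Aa at 0.680 TPM ± 0.146 and H2-Eb1 at 0.466 TPM ± 0.469 were near 0, while H2-Ab1 stood at 19.4 TPM ± 2.74.

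A list of interferon response genes that leaves out Ifitm1 and Ifitm2 had a median of 15.4 TPM over 15 genes, and its highest members were Bst2 at 202 TPM ± 4.45 and Ifi27l2a at 100.6 TPM ± 9.47. The glycolytic genes Aldoa at 1151 TPM ± 41.6, Ldha at 913 TPM ± 18.5 and Gapdh at 902 TPM ± 16.5 led a list of 16 in which all stood at 10 TPM or more. Ldha and Gapdh could not be ordered.

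Immediate early genes, which rise within minutes of stimulation in many cells, had a wide range. Ier3 stood at 1802, 1657 and 1709 TPM, Egr1 at 655, 439 and 555 TPM and Junb at 289, 263 and 262 TPM, while Fos stood at 45.3 TPM ± 3.02. The list of 20 had a median of 39.3 TPM. Egr1 was highest in Control 1 and lowest in Control 2, 1.49-fold apart.

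Lists of markers of other blood lineages differed widely in their sums. The basophil list had the highest sum, at 5667, 5797 and 5762 TPM. It was led by Cyp11a1, the enzyme that starts steroid synthesis, at 2111, 2159 and 2170 TPM, by Prss34 at 1482, 1586 and 1516 TPM, by Itga2b at 1197, 1204 and 1193 TPM, and by Cd200r3, an activating receptor, at 523, 461 and 504 TPM. Each of these is also known from cultured mast cells, and the list shares Prss34 and Mcpt8 with the protease list.

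Few eosinophil, neutrophil and lymphocyte markers had a value. Of 9 eosinophil genes 3 had a value, led by Ccr3 at 10.7 TPM ± 0.971, and Epx, Prg2 and Ear2 had none. Of 14 neutrophil genes 5 had a value, led by Lcn2 at 4.99 TPM ± 1.04, and S100a8, S100a9, Mpo and Elane had none. The 3 valued genes of 12 for T cells summed to 0.344 to 1.36 TPM, the 4 of 12 for B cells to 5.15 to 6.74 TPM, and the 2 of 8 for NK cells to 11.2 to 11.6 TPM. Cd3e, Cd4 and Ms4a1 had no value.

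The macrophage and monocyte list summed to 285, 285 and 289 TPM. Apoe, apolipoprotein E, at 73.9 TPM ± 1.68, Ccr2, a chemokine receptor, at 64.1 TPM ± 3.37, Adgre1, the F4/80 antigen, at 52.6 TPM ± 2.43 and Cd68 at 44.9 TPM ± 4.19 were its highest members. Lyz2 stood at 42.9 TPM ± 2.11. Csf1r, the receptor that defines the lineage, stood at 0.505 TPM ± 0.149 with 10, 16 and 9 counts, and C1qb, Marco, Mrc1 and Mertk had at most 3 counts in each library. Dendritic cell genes summed to 42.7 to 49.1 TPM, led by Itgax at 24.0 TPM ± 1.23, and Flt3 and Zbtb46 had no value.

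Erythroid and megakaryocyte lists were each carried by 1 gene. Hbb-bt, an adult beta globin, stood at 176, 189 and 174 TPM, but 54.7% of its windows occur in Hbb-bs, which had no value, so its level is uncertain. Klf1, the erythroid master factor, stood at 0.970 TPM ± 0.718. The megakaryocyte list summed to 1222 TPM ± 6.17, nearly all of it Itga2b, with Pf4 at 4.69 TPM ± 2.78.

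The progenitor list was led by Ly6a (Sca-1) at 2204, 2208 and 2241 TPM and Cd34 at 310, 309 and 310 TPM, followed by Cd48 at 61.2 TPM ± 2.12. Of its 10 genes 8 had a value, and 6 stood at 1 TPM or more in all libraries. The 8 had a median of 16.2 TPM and a lowest mean of 0.161 TPM, and Flt3 and Prom1 had no value. The stroma and endothelium list was carried by Pecam1, an adhesion molecule also found on leukocytes, at 314 TPM ± 2.47, and the collagen genes Col1a1, Col1a2 and Col3a1 had no value. Xist, the noncoding RNA of the inactive X chromosome, stood at 268, 197 and 226 TPM, and 4 listed genes of the Y chromosome had no value. Whether cells of other types contributed to any of these levels was not tested.

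**Figure D3:**
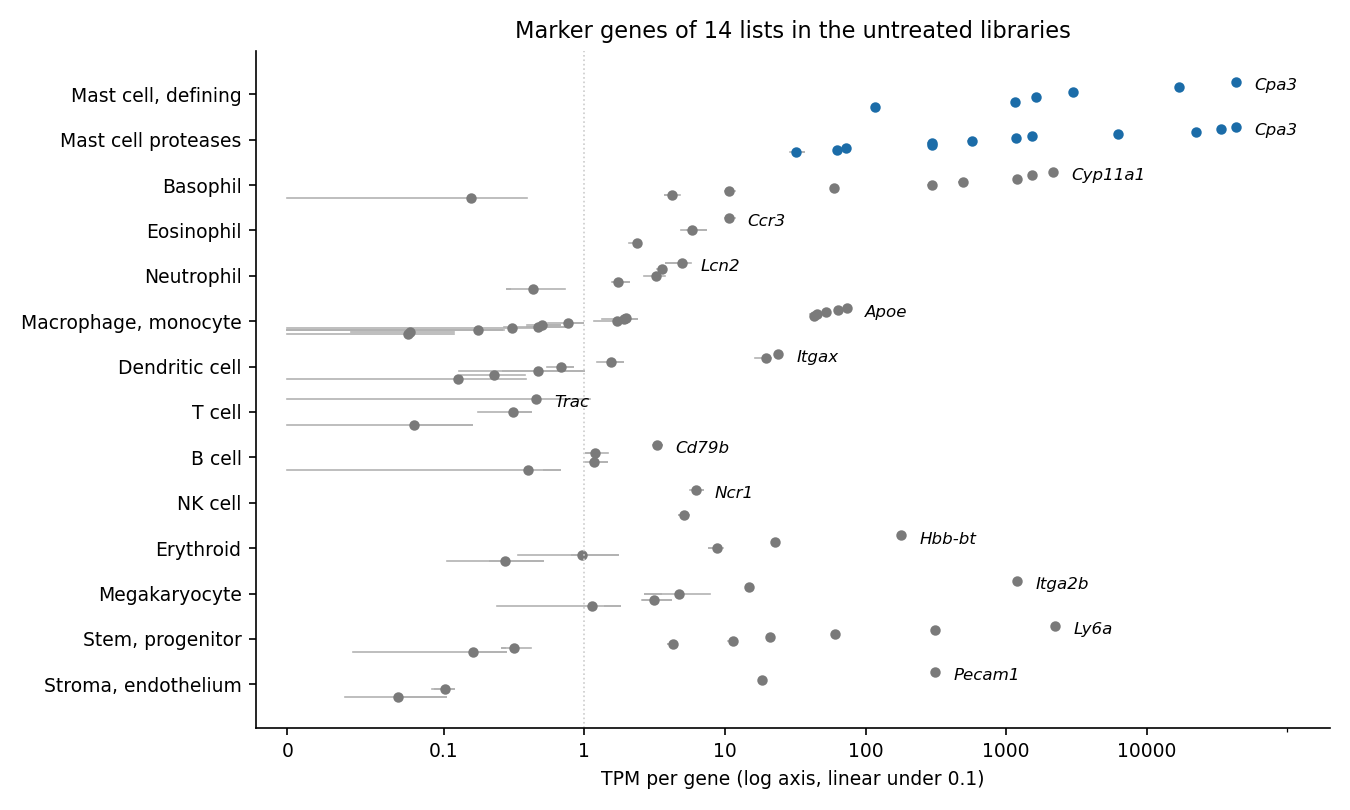
Mean TPM of each gene with a value (points) in 14 marker lists, with the range over the 3 Control libraries as a line and the highest gene of each list named; the axis is logarithmic and turns linear under 0.1, and the dotted line marks 1 TPM. The mast cell lists reach 43007 TPM, while the highest T cell, B cell, NK cell and neutrophil genes stay under 10 TPM.

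Paralogues were compared within 80 families of related genes, because cells often use 1 copy of a family. In 73 families at least 2 members had a value, and the first member by TPM was the same in all 3 libraries in each of the 73. The lead of the first member over the second exceeded its SD in 70 families, and in the other 3, among them Rpl3 over Rpl3l and Cox6a1 over Cox6a2, the second member had no counts in 1 library or more. The lead was at least 2-fold in 53 families, 4-fold in 38, 8-fold in 26, 16-fold in 22 and 32-fold in 13, and the median log2 ratio was 2.00. The families were chosen with the levels known, so these counts describe the list only.

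Lipid mediator and metabolic families were among the most uneven. Alox5 stood at 2065 TPM ± 1.45 (SD, n = 3), while Alox15 had 3, 1 and 4 counts, too few for a ratio. Ptgs1, the constitutive cyclooxygenase, stood at 210 TPM ± 2.24 against 4.33 TPM ± 0.0956 for the inducible Ptgs2, a log2 ratio of 5.60 ± 0.0243. Ldhc, beside Ldha, had 1, 2 and 2 counts. Eno1, a glycolytic enolase, exceeded the muscle form Eno3 by 4.77 ± 0.0727 on the log2 scale. The mitochondrial ADP/ATP carrier Slc25a5 exceeded Slc25a4 by 4.11 ± 0.0404.

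The following families of actin regulators were each led by 1 gene. Pfn1 (profilin) exceeded Pfn2 by 9.59 ± 0.442 on the log2 scale, and Tmsb4x exceeded Tmsb10 by 5.34 ± 0.0639. Fermt3, the kindlin of blood cells, stood at 271 TPM ± 1.51 against 3.38 TPM ± 0.162 for Fermt2. Lcp1, the leukocyte plastin, exceeded Pls3 by 4.98 ± 0.0780 and Cfl1 exceeded Cfl2 by 4.79 ± 0.117. Vav1, the blood cell exchange factor for RAC, stood at 208 TPM ± 3.27 against 10.2 TPM ± 0.444 for Vav2.

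Granule and signalling families were also led by 1 member. Ndst2 exceeded Ndst1 by 4.74 ± 0.207 on the log2 scale, Unc13d, the priming factor of lymphocyte and mast cell granules, exceeded Unc13b by 4.74 ± 0.101, and Ctsd exceeded Ctsc by 4.20 ± 0.108. Inpp5d (SHIP1), the inositol phosphatase of blood cells, stood at 429 TPM ± 10.5 against 16.9 TPM ± 0.997 for Inppl1. Id2 exceeded Id1 by 5.44 ± 0.307, and Ms4a2 exceeded Ms4a3 by 9.08 ± 0.514. Fcer1a exceeded Fcgr3 by 6.99 ± 0.0060, and Tpsb2 exceeded Prss34 by 3.87 ± 0.0180. Rps4x exceeded its retained copy Rps4l by 7.44 ± 0.228.

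The most even families shared their level between members, and first and second members overlapped between libraries in 2 of 70 families, Jak1 with Jak2 and Tet2 with Tet3. Jak1 stood at 197 TPM ± 7.48 and Jak2, the kinase bound to the interleukin 3 receptor beta chain, at 182 TPM ± 6.89, a log2 ratio of 0.11 ± 0.0464. Runx3 and Runx1 stood at 140 TPM ± 2.73 and 121 TPM ± 5.86, and Tet2 and Tet3, which oxidise methylcytosine, at 30.8 TPM ± 3.86 and 26.0 TPM ± 2.76. The adaptor genes Lat2 and Lat, both part of the IgE receptor pathway, stood at 522 TPM ± 4.75 and 362 TPM ± 9.20. Lgals9 and Lgals1, galectins, differed by 0.48 ± 0.0138 on the log2 scale, Anxa5 and Anxa6 by 0.51 ± 0.0196, and the SNARE genes Vamp8 and Vamp3 by 0.65 ± 0.0381.

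The order of some even families depended on the length used. With the longest transcript as the length, Runx1 passed Runx3 and Psmb8 passed Psmb5. Without division by length, 6 of 73 families had another first member: Runx1, Stx3, Slc2a3, Cdk6, Anxa6 and Psmb8. In 7 further families only 1 member had a value, among them Syk without Zap70, at 70.4 TPM ± 3.75, and Tph1.

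**Figure D4:**
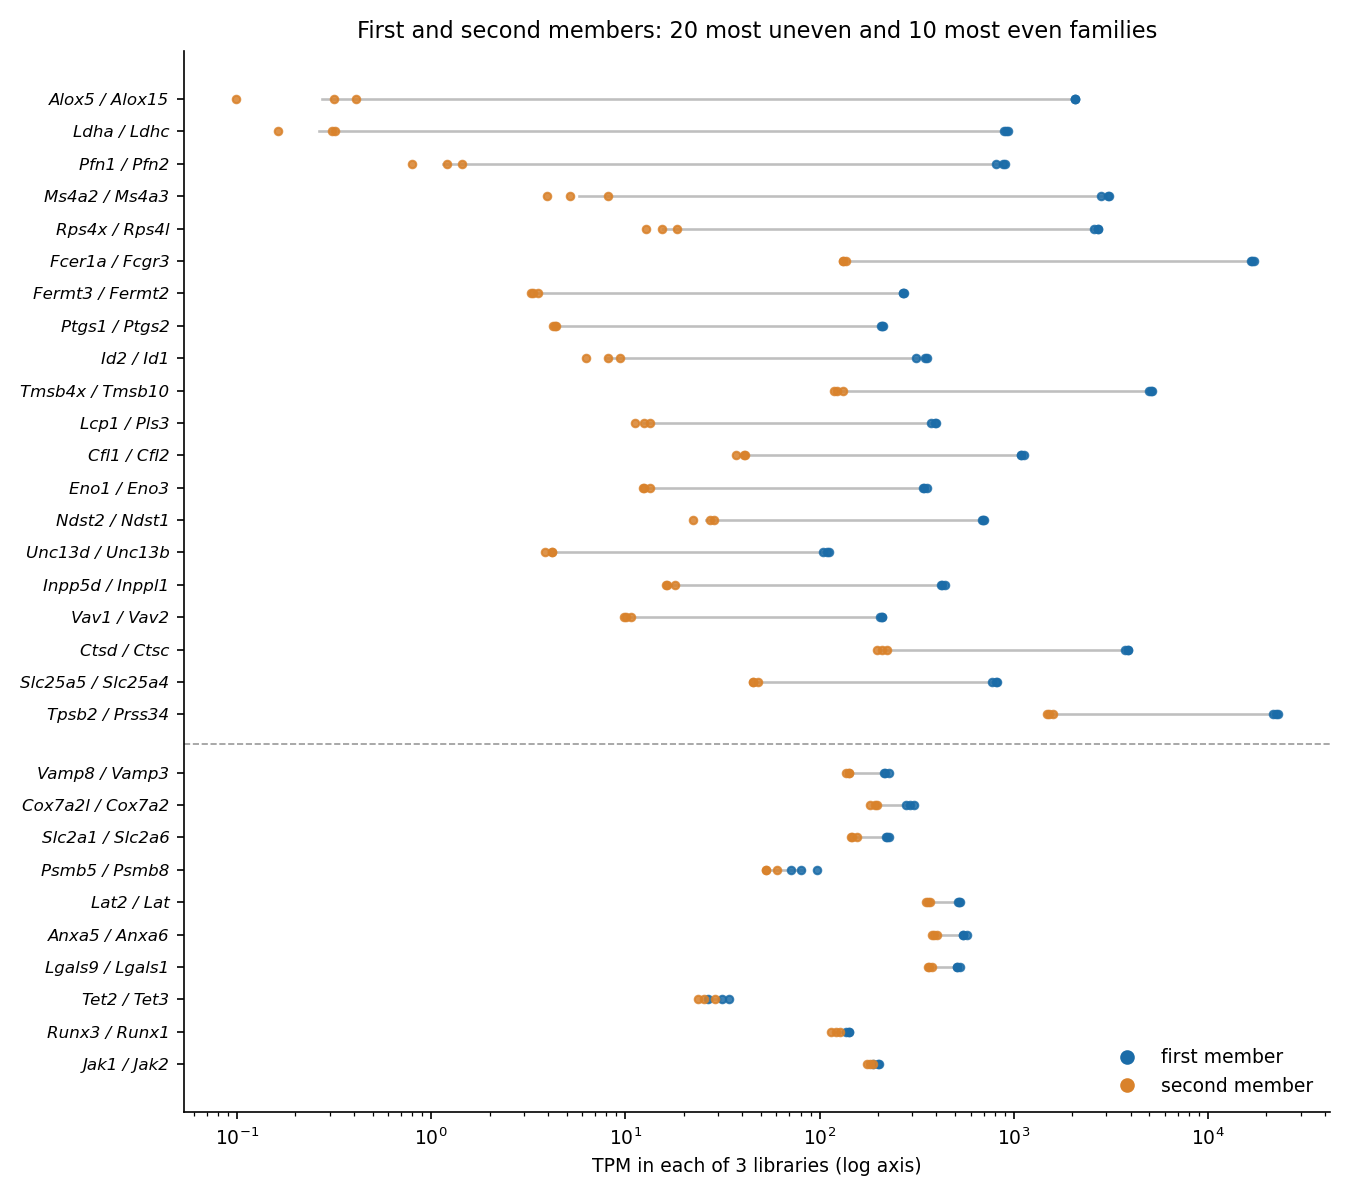
TPM in each Control library (logarithmic axis) of the first (blue) and second (orange) member of the 20 most uneven families with counts for both members in every library, above the dashed line, and of the 10 most even families, below it. First and second members are 3.87 or more apart on the log2 scale in the upper group and overlap between libraries for Jak1 and Jak2 and for Tet2 and Tet3 in the lower.

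A spread between the 3 libraries beyond counting error was called for a minority of genes. A chi-square test compared the counts of each gene over the libraries with those that the library totals give, and p-values were adjusted over 13303 genes with at least 5 expected counts. At an adjusted p under 0.05, 1340 genes (10.1%) were called. The median coefficient of variation (CV) of CPM was 6.47%, and the median of the CVs expected from counting alone was 5.61%. A CV taken from only 3 libraries usually falls below the true one, so the typical excess over counting was larger than this gap. Calls rose with depth, from 1.23% of genes under 1 CPM to 30.8% at 100 to 1000 CPM and 74 of 85 genes above that, so a call marks a precise measurement as much as a large difference. Of the called genes, 456 had a CV over 10% and 125 over 20%.

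Control 2 stood apart from the other libraries most often. It was the library farthest from the mean in 780 of the 1340 called genes, Control 1 in 463 and Control 3 in 97. Pairs gave 1382 calls between Control 1 and 2, 580 between Control 2 and 3, and 229 between Control 1 and 3. The number of called genes therefore rested on Control 2, without which it was 229, and on Control 1, without which it was 580. The common biological CV estimated by edgeR was 4.14%, and 2.82% without Control 2.

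The difference between libraries followed gene length. In 6 bins of genes with at least 200 counts in each library, the median log2 ratio of Control 2 to Control 1 ran from 0.08 in genes of 70 to 2649 bases to -0.10 in genes of 8818 bases or more and was lower in each longer bin. Ribosomal protein genes, whose median length was 1972 bases against 4121 for all genes tested, were called in 77 of 93 cases against 10.1% of all genes, and 84 of them were highest in Control 2. Of the 12 proteases, with a median length of 1164 bases, 8 were called and 10 were highest in Control 2. Of all genes tested, 35.8% were highest in Control 2, and the share called rose with level, to 30.8% at 100 to 1000 CPM and 87.1% above. With library totals taken within 20 bins of gene length, a choice made after seeing the data, 885 genes were called (6.65% of 13300).

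Immediate early genes had a median ratio below 0 at a median length under that of all genes. The list had a median log2 ratio of Control 2 to Control 1 of -0.09, with a median length of 3250 bases. Of its 20 genes 11 were lowest in Control 2, against 35.9% of all genes tested. Called were 7 of 20, against 10.1% of all genes, a comparison not matched for level. Among all genes tested the share called was 7.94% at 10 to 100 CPM and 30.8% at 100 to 1000 CPM. Egr1 measured 830, 573 and 711 CPM and had a CV of 18.3%, with an adjusted p of 3.5e-139 in the chi-square test. Myc measured 158, 123 and 146 CPM, a CV of 12.5%. Xist, a transcript of 17946 merged bases, measured 1361, 1029 and 1161 CPM, a CV of 14.1%, and lies at the long end of the trend. For all 3 genes Control 1 was highest and Control 2 lowest.

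The largest CVs among called genes with at least 10 CPM that are not predicted genes were mostly of genes highest in Control 1 and lowest in Control 2. Klhl11 measured 14.6, 7.58 and 12.3 CPM in Control 1, 2 and 3, a CV of 31.1%, with a short merged length of 2393 bases, and Tmtc3 14.6, 9.00 and 10.4 CPM, a CV of 25.7%. Lnpep, an aminopeptidase with 14144 merged bases, measured 140, 90.5 and 106 CPM, a CV of 22.6%, and Zfp871, with 11116 bases, 122, 81.0 and 91.6 CPM, a CV of 21.4%. Lcor, Ccdc88c and Arhgap5 were also highest in Control 1 and lowest in Control 2. Ccdc88c measured 16.0, 11.2 and 11.4 CPM, with 158 counts in both Control 2 and Control 3. Tmem86a, Mir5125 and Apip were instead highest in Control 2, with CVs of 25.1, 24.0 and 21.1%. These last 3 have merged lengths of 1887, 79 and 1000 bases.

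Some genes agreed within counting error to a fraction of a percent. Cmip measured 300, 300 and 299 CPM with a CV of 0.0867%, and Atf4, the factor of the amino acid response, 717, 717 and 719 CPM with a CV of 0.148%. Glyr1, Mcu and Septin7 had CVs of 0.0955, 0.108 and 0.158%. Counting alone gives a CV of 1.00% for Atf4 and 1.55% for Cmip, so these values are smaller than the spread that counting alone gives on average.

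**Figure D5:**
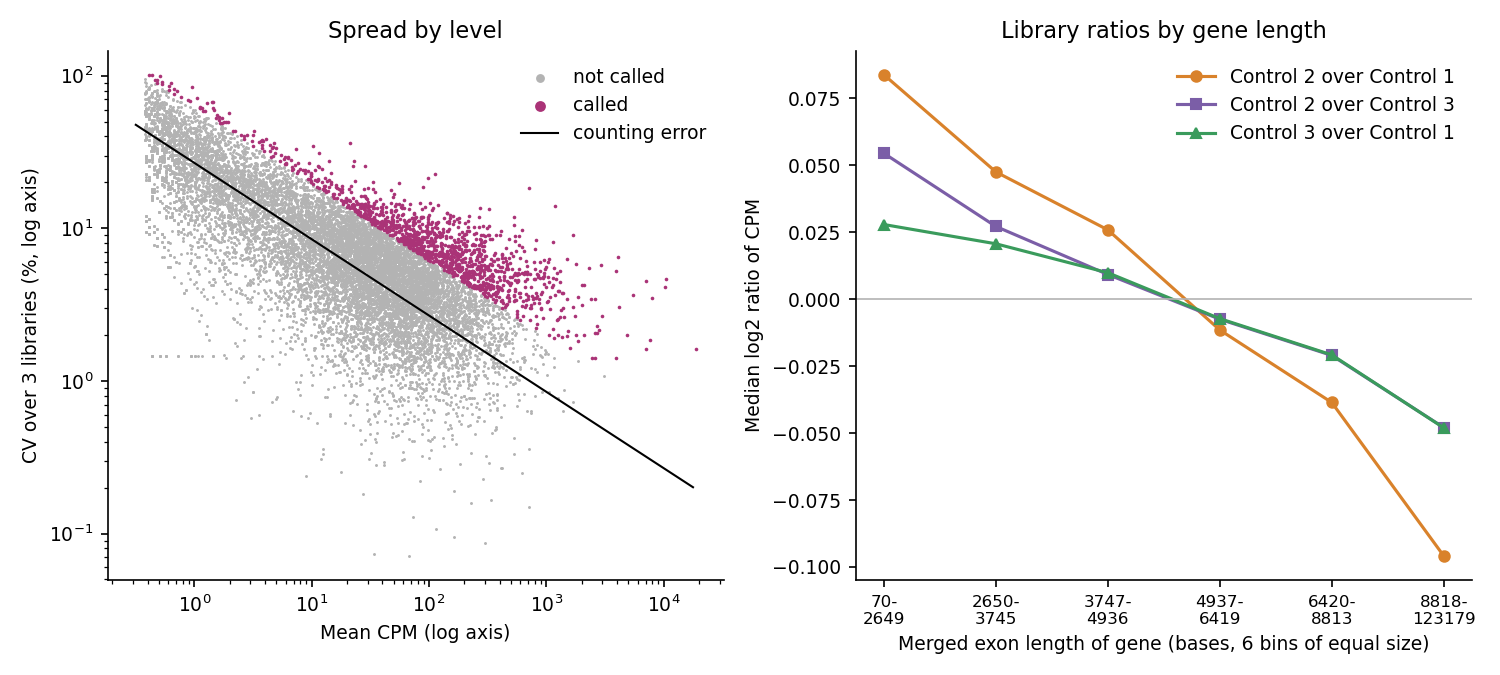
Left, CV of CPM over the 3 Control libraries against mean CPM for the genes tested, both axes logarithmic, with the 1340 called genes in purple and the CV from counting alone as a line; right, the median log2 ratio of CPM for each pair of libraries in 6 bins of merged exon length. Ratios fall with length for every pair, most for Control 2 over Control 1, from 0.08 to -0.10.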

How the data were processed

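RNA was sequenced in 9 libraries, of which the 3 Control libraries were analysed here. Reads were aligned by the authors with STAR 2.7.0f to mm10 or GRCm38, per the submitters' processing notes, which also name limma 3.11. The sources used here do not state the counter, strand setting or annotation, so overlapping and antisense genes may share reads. The deposited table holds whole-number counts with differing totals, and the deposited log2 values match log2(CPM + 1) from plain totals within 5.0e-05. The table is labelled as TMM-normalised in its name, but for these reasons its values were used as unscaled, and the chi-square test and counting limits rest on that.

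From the counts, CPM and TPM were computed with plain library totals and with merged exon lengths from GENCODE M21. Lengths were found for 15106 genes, and the other 3 held 0.001947% of counts. Spread was tested by chi-square with Benjamini-Hochberg adjustment (scipy 1.17.1), after a check on simulated data, and edgeR 4.0.16 and DESeq2 1.42.0 gave library factors and dispersion. Shared windows of the length of a read were found in the transcripts, coding sequences were aligned with Biopython 1.88, and promoters came from RefSeq (GRCm38.p6).

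The genes named are the 20 highest by TPM outside the ribosome, the top 3 ribosomal genes, the 6 markers, the highest of each list (10 for factors, receptors and mediators), the first and second members of the 20 most uneven and 10 most even families, and the extremes of spread. Genes named for low or absent values, for their place in a protease locus, as partners of a named gene or for the order of the libraries were chosen after their values were seen. The members and lists were chosen with earlier results of these data known. Alternatives were another length or none, other thresholds, other library factors and each library left out.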

Additional observations from a re-analysis of the deposited data

How the results depend on the processing

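Shares depended on the length that counts were divided by, and little on the libraries. Without division by length the first 100 genes held 22.4%, the proteases 4.35%, the 6 markers 3.21%, the macrophage and monocyte list 0.0263% and the basophil list 0.637% of the sum; with the longest transcript as the length these were 32.5, 8.94, 5.36, 0.0258 and 0.581%. Over protein-coding genes only, the first 100 held 35.4% and the proteases 11.3%. Without genes under 300 bases, a choice made after seeing the data, the macrophage and monocyte list held 0.0290% and the basophil list 0.581%. With each library left out in turn, the first 100 held 34.4 to 34.7% and the proteases 10.9 to 11.0%. The 6 markers then held 6.52 to 6.64%, the macrophage and monocyte list 0.0285 to 0.0287% and the basophil list 0.571 to 0.578%. A mean of 3 libraries cannot move by its SD when 1 is left out, so the SD is no yardstick for these ranges. Genes at 1 TPM or more in all libraries numbered 12975 at a limit of 0.5, 11167 at 2, 11459 at 1 CPM and 12622 in at least 2 libraries, and 37 to 38 families led by at least 4-fold under each alternative. Without division by length the log2 ratio turned for Runx3 to Runx1 (-1.05), Stx4a to Stx3 (-0.49), Cdk4 to Cdk6 (-1.32), Anxa5 to Anxa6 (-0.21) and Psmb5 to Psmb8 (-1.33), and with the longest transcript for Runx3 to Runx1 (-0.46) and Psmb5 to Psmb8 (-0.25). The number of genes called for spread was 1353 with TMM factors, 1341 with DESeq2 size factors, 1405 with at least 50 counts in each library and 1301 with no filter, 229 to 1382 with a library left out and 885 with totals within bins of length, of which 710 were among the 1340. The cause of the length trend was not tested. No paired analysis was possible because only 1 group was used. At these depths 3 counts are 0.213 to 0.219 CPM, so genes near that limit cannot be ordered.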
